A study of Mus musculus with 4 samples.

Results

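The regions described here are sites of OTX2 on the genome of mouse primitive streak (PS) cells that were listed for PS alone and that lay more than 50 kb, midpoint to midpoint, from every site listed for both PS and definitive endoderm (DE). The rule kept 958 of the 1634 regions of the PS only list (58.6%), out of 39615 regions in the 4 deposited lists, and used the distance to PS and DE regions and nothing else. They are called the isolated streak regions below. The name means away from PS and DE regions only, as 746 of the 958 (77.9%) had a DE only region within 50 kb. The other 676 PS only regions, within 50 kb of a shared region, served as their closest comparison, together with 20935 DE only regions and 248 EPI and PS regions that passed the same distance rule. EPI is written as in the list name, which the labels do not spell out.

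OTX2 was located with CUT&RUN, in which an antibody tethers a nuclease to a chromatin protein and the freed DNA fragments are sequenced. The libraries of PS cells are 3 with anti-HA, from the lines 7H, 7H1 and 7H2 OTX2-dTAG-EGFP, and 1 with control IgG, from line 7H2. All lines carry tagged OTX2 on a BL6/129 hybrid background, and no degrader treatment is named for them. The PS cells came from EpiSCs, epiblast stem cells grown with NVP (175 nM), FGF2 (12.5 ng/ml) and Activin A (20 ng/ml). For 16 h they were given 3 uM of CHIR, which activates WNT signalling, beside Activin A at 40 ng/ml, and 500000 cells were used per sample. DE cells, behind the other lists, then spent 24 h with LDN (100 nM), a blocker of BMP receptors, plus 100 ng/ml of Activin A. Libraries of EpiSCs and DE cells were not analysed here. The lists hold positions only, so depth is unknown, no spread between the 3 lines can be given, and the cell type could not be checked against expressed markers.

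OTX2 is a homeodomain factor of the bicoid class, which reads short sites with the core TAATCC. It acts in the epiblast as cells leave naive pluripotency and later in the anterior streak, the anterior endoderm and the forebrain. The primitive streak is the place where epiblast cells turn into mesoderm and definitive endoderm, under NODAL, WNT and BMP signals.

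The isolated streak regions were short and for the most part lay away from gene starts. The sequence could be read where a region crossed a RefSeq promoter window (250 bases before to 50 after a gene start, GRCm38.p6, the assembly of mm10), which held for 48 of the 925 isolated regions on chromosomes of that promoter table. The 7 printed next are the 3 that hold TAATCC on either strand, the 2 others that hold its core TAATC, and those of the signalling genes Wnt5b and Grb2, which hold neither. Capitals mark TAATCC or TAATC, or their reverse complements GGATTA and GATTA, and each sequence runs 5′ to 3′ on the strand of the gene.
Nanog (chr6:122707395-122707570, plus strand): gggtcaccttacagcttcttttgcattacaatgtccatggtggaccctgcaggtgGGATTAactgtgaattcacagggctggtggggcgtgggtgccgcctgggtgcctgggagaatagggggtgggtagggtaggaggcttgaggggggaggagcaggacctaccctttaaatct
Gm30134 (chr11:96203384-96203488, minus strand): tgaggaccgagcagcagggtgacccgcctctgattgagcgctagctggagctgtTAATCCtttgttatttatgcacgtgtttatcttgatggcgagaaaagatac
Gm41256 (chr15:5135272-5135466, minus strand): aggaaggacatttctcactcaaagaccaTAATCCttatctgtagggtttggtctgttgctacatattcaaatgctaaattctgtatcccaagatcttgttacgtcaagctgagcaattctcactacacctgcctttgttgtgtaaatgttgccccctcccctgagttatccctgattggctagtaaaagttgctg
Tfap2a (chr13:40733997-40734045, minus strand): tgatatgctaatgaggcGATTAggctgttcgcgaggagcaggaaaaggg
Hmgxb4 (chr8:75016029-75016109, plus strand): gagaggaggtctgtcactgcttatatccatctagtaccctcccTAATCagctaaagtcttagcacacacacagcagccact
Wnt5b (chr6:119449400-119449541, minus strand): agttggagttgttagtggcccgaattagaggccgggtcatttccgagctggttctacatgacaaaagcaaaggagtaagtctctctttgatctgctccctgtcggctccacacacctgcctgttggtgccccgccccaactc
Grb2 (chr11:115699485-115699615, minus strand): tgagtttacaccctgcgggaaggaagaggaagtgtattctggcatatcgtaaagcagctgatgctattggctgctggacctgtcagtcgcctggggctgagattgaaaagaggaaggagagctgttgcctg
The Tfap2a and Grb2 lines give the 49 of 116 and 131 of 187 bases of the region that fall in the window. Nanog encodes a homeodomain factor of pluripotency, Tfap2a the AP-2 alpha factor of surface ectoderm and neural crest, and Hmgxb4 an HMG-box protein. Gm30134 and Gm41256 are long non-coding RNA genes. The nearest protein-coding genes to their regions are the homeobox gene Hoxb13, 6.83 kb away, and Prkaa1, a subunit of the energy sensor AMPK, 8.49 kb away.

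The region at Nanog ran from 170 bases before to 5 bases after the later of the 2 starts that the table gives for the gene. The bicoid-class letters lay on the opposite strand, 115 to 110 bases before this start. In the same sequence, 151 to 145 bases before the start, stood the letters TTTGCAT, an octamer-like motif read by POU factors, which 4.63% of all promoter windows hold. At 143 to 138 bases before the start came ACAATG, the core of SOX sites, which 12.6% of all windows hold. The octamer and SOX letters were searched after the sequence had been seen, and this promoter is known for a composite element of the same pair of factor families. The Nanog region was 12.7 kb from the closest DE only region and 52.2 kb from the closest PS and DE region, just past the 50 kb threshold. In Gm30134 the bicoid-class letters ended at the base before the start (6 to 1 bases before it). In Gm41256 they stood 158 to 153 bases before the start, directly followed by letters of the GATA type at 152 to 147.

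Across the 48 isolated regions in promoter windows, TAATCC occurred in 3 (6.25%). Read at the same positions in all 32851 promoter windows of the table, it would occur in 2.33%, or 1.12 of 48, and 7.06% of whole windows of 300 bases held it. The core occurred in 5 (10.4%), against 7.77% at the same positions of all windows. It occurred in 5 of 27 PS only regions beside shared regions (18.5%). Under the same distance rule it was in 196 of 2089 DE only regions (9.38%) and 1 of 7 EPI and PS regions. The PS only regions beside shared regions had the 6 letters in 2 of 27 and the DE only regions under the same distance rule in 88 of 2089 (4.21%), where the stretch in the window was longer (median 118 bases, against 87.5 bases in the isolated streak regions). No test was run on these small counts. The other letters were also searched on both strands. The GATA letters AGATAA occurred in 3 isolated regions, against 1.78 at the same positions of all windows, and 11.2% of whole windows held them. The SMAD letters CAGACA also occurred in 3 isolated regions, against 3.39 at the same positions, and 21.04% of whole windows held them.

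None of the 48 isolated regions (0) held the letters GTAAACA, which forkhead factors read and which 3.65% of whole windows hold. The count was also 0 for the T-box letters TCACACC, found in 3.98% of whole windows, and for the TCF/LEF letters CTTTGAA, found in 5.14% of them. It was 0 again for the POU letters ATTTGCA, which share all but the outermost base with the octamer above and which 4.02% of whole windows hold. The AP-1 letters TGACTCA, in 5.20% of whole windows, and the longer SOX letters ACAATGG, in 3.66% of them, also had a count of 0. Whole windows are 300 bases long, while the stretches read here had a median of 87.5 bases. At the same positions of all windows, 0.561 of 48 would hold the forkhead letters, 0.610 the T-box and 0.770 the TCF/LEF letters. The values were 0.645 for POU, 0.853 for AP-1 and 0.589 for the longer SOX letters, so these counts of 0 show no shortage. No match says only that these letters are not in these stretches, and most isolated regions lie outside promoter windows.

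Isolated streak regions lay at gene ends less often than DE only regions chosen by the same distance rule. For 72 of 958 isolated regions, the midpoint stood at most 1 kb from the start or the end of a protein-coding gene (7.52%, 95% Wilson interval 6.01 to 9.36), against 3127 of 20933 DE only regions (14.9%, 14.5 to 15.4). The ratio of the shares was 0.503, with a Fisher's exact p, two-sided and adjusted over 17 tests, of 1.46e-10. With gene starts alone, where the promoter table gives them, the shares were 63 of 925 (6.81%) and 2587 of 20213 (12.8%). Their ratio was 0.532, at an adjusted p of 9.05e-08 by Fisher's exact test. The low share was not shown to be particular to the isolated regions. PS only regions beside shared regions had 8.14% at gene ends and 5.43% at gene starts, and EPI and PS regions under the same rule had 8.87% and 6.61%. None of these passed the threshold against the isolated regions (adjusted Fisher's exact p of 0.803 and 0.704 for PS only, 0.774 and 1 for EPI and PS). With only regions of at least 150 bp, the isolated share was 3.67% at gene ends and 2.96% at gene starts, and the ratios to DE only were 0.263 and 0.236. Regions are not replicates and neighbours are not independent, so these p-values are too small.

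**Figure D1:**
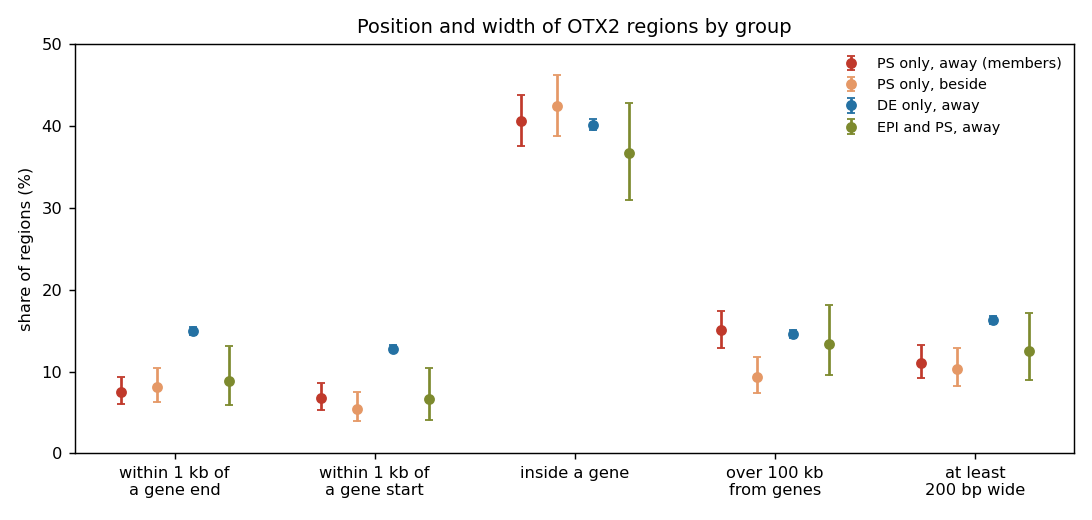
Share of regions (percent, y axis) at gene ends, at gene starts, inside genes, far from genes and at least 200 bp wide, for the isolated streak regions (PS only, away) and 3 comparison groups; points are shares and bars 95% Wilson intervals. The isolated streak regions sit at 7.52% at gene ends, against 14.9% for the DE only group.

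Around gene starts the isolated regions gathered on the upstream side, as did those of DE. Of the 63 within 1 kb of a start, 48 lay upstream (76.2%, 95% Wilson interval 64.4 to 85.0), against 1982 of 2587 DE only regions (76.6%). The 500 bases before a start held 42 isolated regions, 4.54% of those counted, against 8.69% of DE only regions, and the next 500 bases upstream held 6 isolated regions. Beyond 1 kb and up to 5 kb from a start, the isolated share was above that of DE only in 12 of 16 bins of 500 bases, most in the bin from 2.5 to 2.0 kb upstream (1.30%, 12 regions, against 0.549%). That bin was picked for its excess. PS only regions beside shared regions (0.776%) and EPI and PS regions under the same rule (0.826%) were above DE only there too. These differences were not tested. The promoter windows touched by isolated regions had a median GC content of 57.0% (54 windows), against 61.7% for DE only (2497 windows) and 56.3% for all windows of protein-coding genes. An observed over expected CpG ratio of at least 0.6, the usual mark of a CpG island, was found for 57.4% of the windows touched by isolated regions, 75.5% of those touched by DE only regions and 47.7% of all windows of protein-coding genes. The windows touched include some of non-coding genes. Over all windows of the promoter table, coding or not, the median GC content was 52.7%, and 35.8% had that CpG ratio. PS only regions beside shared regions touched 26 windows, with a median GC content of 58.8% and 53.8% at that CpG ratio. For EPI and PS regions under the same rule, with 7 windows, the values were 51.3% and 71.4%.

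**Figure D2:**
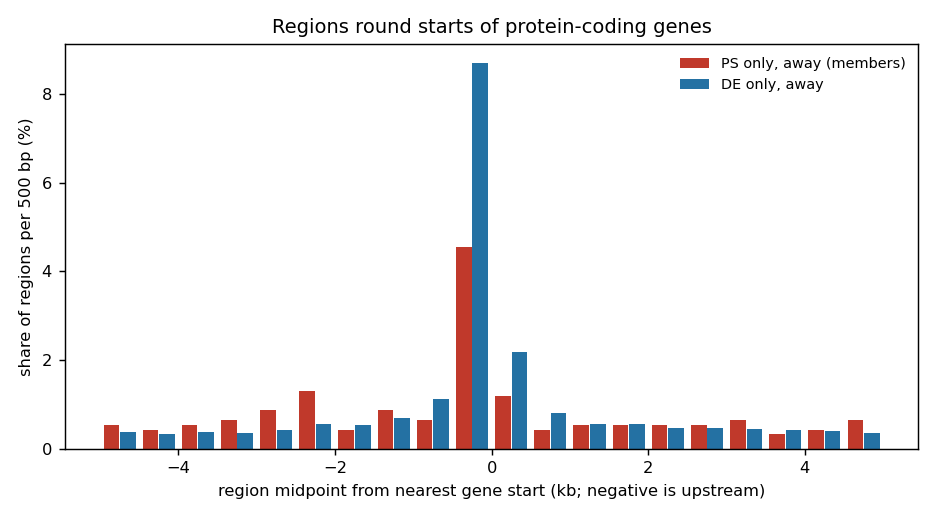
Share of regions per 500 bp (percent, y axis) by the position of the midpoint from the nearest start of a protein-coding gene (kb, x axis, negative upstream), for isolated streak regions and DE only regions under the same distance rule. Both peak in the 500 bp before the start, at 4.54% and 8.69%.

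The genes whose promoter window was crossed by an isolated region were of many kinds, and the following were picked after their positions were seen. Besides Nanog, Wnt5b and Grb2 they included Ucp2, a mitochondrial carrier (chr7:100493176-100493322), Ptprr, a protein tyrosine phosphatase (chr10:116018170-116018336), and the polycomb gene Pcgf2. Housekeeping genes were present too, among them Rpl27 of the ribosome, Ndufb8 of respiratory complex I and Tufm, the mitochondrial elongation factor. Of the 48 regions, 42 were at protein-coding genes and the others at non-coding genes. The start of Mir205hg, the host gene of Mir205, carried a region at chr1:193510160-193510291, 2.73 kb from the Mir205 hairpin. In all, 12 of the 925 isolated regions on the chromosomes of the miRNA table (1.30%) lay within 10 kb of a miRNA hairpin, against 1.34% of DE only regions under the same rule.

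Inside genes and far from genes, the isolated regions were close to the DE only regions in share. A midpoint inside a protein-coding gene and not near its ends was found for 389 isolated regions (40.6%), 42.5% of the PS only regions beside shared regions and 40.1% of the DE only regions. The adjusted Fisher's exact p was 0.774 and 0.837. With 1 region kept per gene or per 100 kb bin, the isolated share was 39.5% against 29.1% for DE only inside genes (adjusted Fisher's exact p = 2.37e-09). The region kept was the one with the lowest coordinate, not a random one. This left 864 of 958 isolated but only 10384 of 20933 DE only regions, so the groups were thinned unequally. In that setting the share far from genes was 15.9% against 19.9% (adjusted Fisher's exact p = 0.00789); both comparisons with DE only thus depend on it. More than 100 kb from any protein-coding gene lay 144 isolated regions (15.03%, 12.9 to 17.4), against 63 of 676 PS only regions beside shared regions (9.32%). The ratio was 1.61, at an adjusted p of 0.00222 by Fisher's exact test. With all lists cut to regions of at least 150 bp it was 1.21 and did not pass (adjusted Fisher's exact p of 0.871). Away from and beside shared regions, the other lists were split in the same direction: the shares far from genes were 14.6% and 8.70% for DE only, and 13.3% and 8.397% for EPI and PS. This split was thus not particular to PS only regions, and the groups were chosen by distance to PS and DE regions. Regions are not replicates, so the p-values here are too small. Against DE only regions under the same rule (14.6%) the adjusted Fisher's exact p was 0.803. Of the 542 isolated regions outside protein-coding genes, 96 (17.7%) lay inside a long non-coding RNA gene, against 14.9% of such DE only regions. This share was 17.98% for PS only regions beside shared regions, and thus not particular to the isolated regions. For EPI and PS regions under the same rule it was 11.4%. The shares in long non-coding RNA genes were not tested. The EPI and PS regions under the same rule did not pass the threshold against the isolated regions in any of the 6 measures (adjusted Fisher's exact p from 0.704 to 1), with only 248 regions to compare.

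Wide regions were less frequent among the isolated regions than among DE only regions. The isolated regions ran from 77 to 548 bp, with a median of 113.5 bp and quartiles of 92 and 158 bp, against 77 to 416 bp and a median of 116 bp in the PS only regions beside shared ones. At least 200 bp wide were 106 isolated regions (11.1%), against 10.4% of the PS only regions beside shared regions (adjusted Fisher's exact p = 0.803) and 16.3% of DE only regions under the same rule (ratio 0.680, adjusted Fisher's exact p = 4.56e-05). The shortest DE only region of that group was 62 bp and the shortest isolated region 77 bp, so the lists did not share a lower limit. The widest isolated region, 548 bp at chr6:49633892-49634439, lay over 100 kb from any protein-coding gene and 50.15 kb from the nearest PS and DE region. The next were 399 bp at chr15:62336583-62336981, also far from genes, 389 bp inside Lmx1a, a LIM homeobox gene of the roof plate and midbrain (chr1:167754817-167755205), 387 bp inside Ninj2 and 381 bp inside Asic2, an acid-sensing ion channel gene (chr11:81613111-81613491).

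The 50 kb threshold cut through a continuous range. The nearest isolated regions lay 50.15 kb, 50.18 kb (at Rfx4) and 50.20 kb (at Dtx2) from a PS and DE region, and the nearest PS only regions left out lay 49.73 kb (at Socs3), 49.70 kb (at 4930447A16Rik) and 49.59 kb (at Sfmbt2). The median isolated region was 169.6 kb from the closest PS and DE region and the farthest 3212 kb, on chromosome X. The share of PS only regions that were isolated ranged from 45.7% on chromosome 19 (21 of 46) to 87.9% on chromosome X (29 of 33).

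Most isolated regions had a DE only region near them. A DE only region lay within 50 kb of 746 isolated regions (77.9%, 75.1 to 80.4), against 575 of 676 PS only regions beside shared regions (85.1%). The ratio was 0.915, at an adjusted p of 0.00114 by Fisher's exact test. It no longer passed when DE only regions within 100 kb were counted (0.966, adjusted Fisher's exact p = 0.0578), when regions over 25 kb from a shared one were taken as isolated (0.939, p = 0.0606) or with only regions of at least 150 bp (0.792, p = 0.204). The other lists were split in the same direction, with 76.7% away from and 90.2% beside shared regions for DE only, counting another region of that list, and 75.8% and 87.0% for EPI and PS. The split was thus not particular to PS only regions, and the groups themselves were chosen by distance to other OTX2 regions. Neighbouring regions are not independent, so these p-values are too small. The median distance to the nearest DE only region was 21.2 kb for the isolated regions and 14.4 kb for those beside shared regions, and within 10 kb the shares were 30.6% and 41.1%. A DE only region stood within 1 kb of 68 isolated regions (7.10%) and of 49 others (7.25%). At these sites the deposited lists place a streak site and a separate endoderm site almost side by side, as at Pde4d, a cAMP phosphodiesterase gene (0.1545 kb between midpoints), near Ankrd9 (0.2075 kb) and in Cdh13, a cadherin gene (0.387 kb). No source used here says how such sites were told apart between stages.

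**Figure D3:**
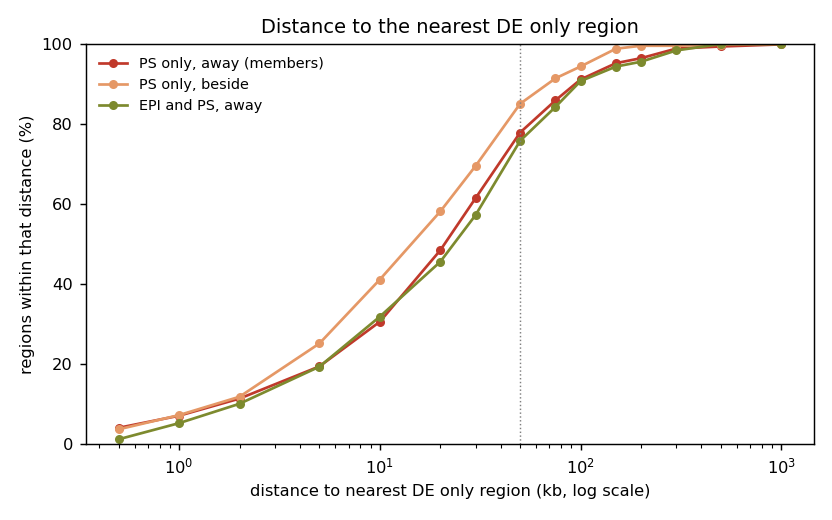
Cumulative share of regions (percent, y axis) whose nearest DE only region lies within a given distance (kb, log x axis), for isolated streak regions, PS only regions beside shared regions, and EPI and PS regions under the same distance rule; the dotted line marks 50 kb. At 50 kb the shares are 77.9% for isolated streak regions, 85.1% for those beside shared regions and 75.8% for EPI and PS.

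A smaller set stood alone among the listed regions. For 194 isolated regions (20.3%) no region of any of the 4 lists lay within 50 kb, and 15 more had only PS only neighbours. By their names, the 4 lists leave out sites of EPI alone, of EPI and DE, and of EPI, PS and DE together. Such sites could not be counted, so these regions may have other OTX2 sites near them. Of the 194, 49 were far from genes (25.3%), against 95 of the 764 isolated regions with a neighbour (12.4%). At gene ends the shares were 7.22% and 7.59%, and the median widths 111.5 and 114 bp. An EPI and PS region lay within 50 kb of 28 isolated regions (2.92%).

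Most isolated regions were single. When neighbours up to 50 kb apart were joined, 808 stayed alone, 64 groups had 2 regions, 6 had 3 and 1 had 4. Very close neighbours were nonetheless present: 53 isolated regions (5.53%) had another PS only region within 1 kb of their midpoint, against 4.44% of the PS only regions beside shared regions. Under the same distance rule, 7.26% of EPI and PS and 10.5% of DE only regions had another region of their own list that close. The group of 4 lay upstream of Camk1d, which encodes a calcium and calmodulin dependent kinase, between chr2:5725011 and 5738878. These regions were 168, 205, 247 and 356 bp wide and stood 10.3, 10.8, 21.4 and 23.9 kb before the gene start, with a further region of 298 bp inside the gene at chr2:5584582-5584879. Only 1 DE only region lay within 50 kb of this group, 16.6 kb from its nearest region. A group of 3 at chr6:31087928-31089201, within 1.27 kb, was over 100 kb from any protein-coding gene.

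The other groups of 3 lay at Ninj2, Fars2, Grb2, Rora and Rell1. Grb2, the adaptor that couples receptor tyrosine kinases to RAS, had 3 inside its span. They lay at an internal start (chr11:115699429-115699615), 1.17 kb upstream of that region (chr11:115700644-115700734) and downstream in the gene (chr11:115685431-115685548), and 1 DE only region was assigned to the gene. Ninj2, which encodes a cell surface adhesion protein, had 3 inside the gene, at chr6:120180566-120180651, chr6:120188457-120188551 and chr6:120191486-120191872, and the widest of them lay 0.84 kb from a DE only region. Fars2, for the mitochondrial phenylalanyl-tRNA synthetase, had 2 inside its span and 1 beyond its end, from chr13:36526803 to 36538745. Rora, an orphan nuclear receptor gene, had 3 within 15.7 kb (chr9:68762196 to 68777910) and another 373 kb further on. Rell1, of the RELT-like membrane proteins, had 1 inside and 2 before its start, the nearer at chr5:63969872-63969973. Pde4d also had 3, spread over the gene. Of the genes with 2, the first by symbol were Adra1b, Ankrd9, Arhgap15, Asic2, Atl2, Auts2, Bcas1, Braf, Ccdc121, Celf4, Col16a1 and Dab1.

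**Figure D4:**
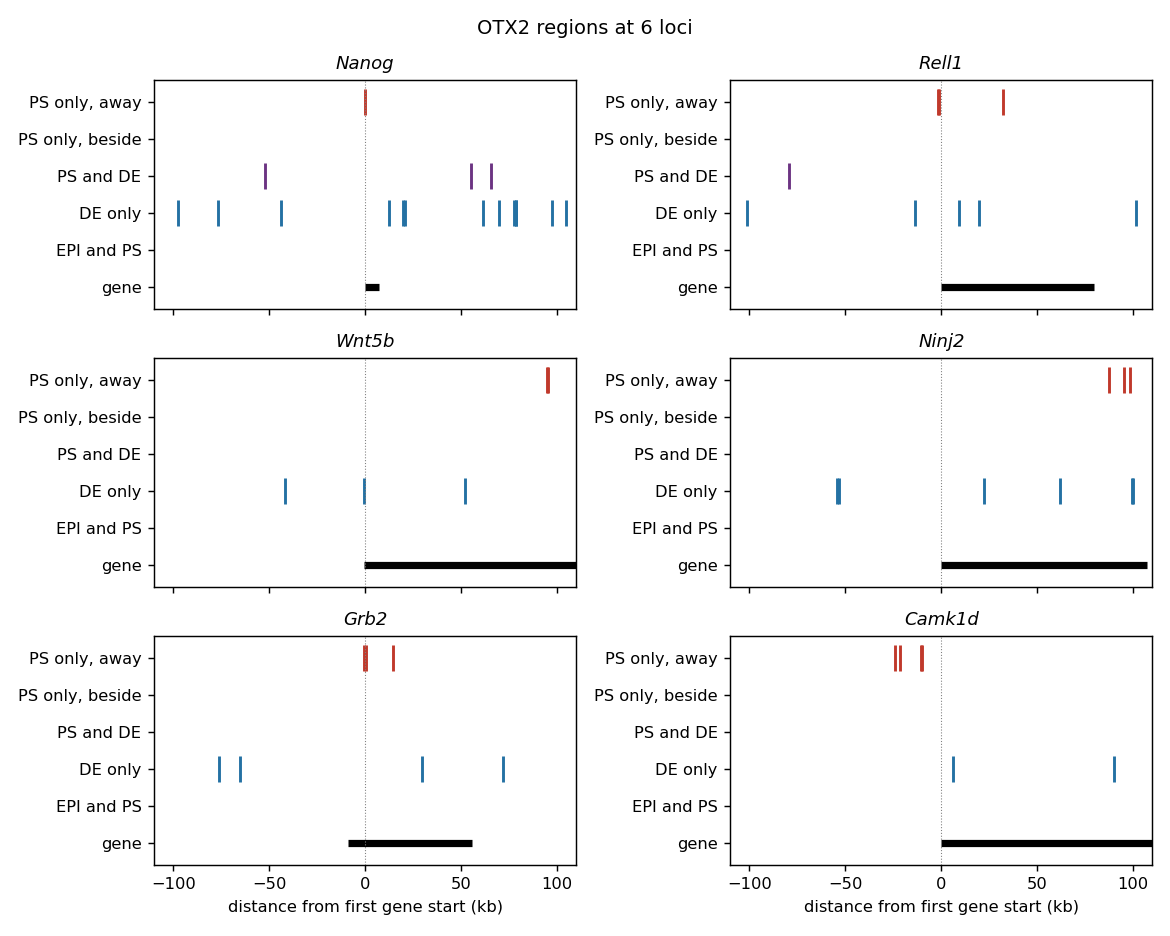
Positions of OTX2 regions (ticks, 1 lane per list) and of the gene (black bar) at 6 loci, by distance from the first start in the promoter table (kb, x axis, downstream positive). Isolated streak regions (top lane) stand at the start of Nanog, at an internal start of Wnt5b and upstream of Camk1d, and DE only regions are the most frequent neighbours shown.

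Of the isolated regions, 814 (85.0%) could be assigned to the protein-coding gene that holds the midpoint or else to the nearest gene end within 100 kb. They fell on 727 of 21887 protein-coding genes, or 3.32%. Of these genes, 652 had 1 region, 67 had 2, 5 had 3, Rbfox1 and Rora had 4 and Camk1d had 5. The genes were long, with a median span of 57.3 kb, against 17.2 kb over all protein-coding genes, and long genes catch more regions under this rule. Rbfox1, a splicing regulator gene of 1528 kb, had 4 regions where its territory would hold 0.737 at the mean rate of 0.426 isolated regions per Mb of gene territory. Camk1d would hold 0.209, Grb2 0.0426 and Ninj2 0.0571. These genes were picked for their high counts, so counts above the mean rate follow from the choice, and some of their regions are close neighbours. At the mean rate, with regions placed independently, 768 genes would have at least 1 isolated region, against 727 counted. Of the 727 genes, 542 (74.6%) also had a DE only region, against 50.1% of all protein-coding genes, and 170 (23.4%) had a PS and DE region, against 16.3% of all protein-coding genes. Long genes catch more regions of every list, and these shares were not matched for length.

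A set of 175 of these genes (24.1%) had no region of the other 3 lists, against 46.3% of all protein-coding genes, again with no match for gene length. Of the 175, 5 had 2 isolated regions, namely Ddx58, Prrt3, Slc25a46, Tcl1 and Zfp677, chosen after their values were seen. Ddx58 encodes the RNA sensor RIG-I, and Tcl1 a kinase co-activator active in embryonic stem cells. At Tcl1 both regions lay 74.9 and 75.5 kb before the start (chr12:105297586-105297681 and chr12:105298123-105298304), 111 kb from any DE only region. At Prrt3 a region lay just upstream of the start (chr6:113502028-113502111) and another 0.951 kb from it.

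Gene lists of signalling pathways, cell types and controls were read against the background of 3.32% of protein-coding genes with an isolated region. The 16 lists held 422 different genes, of which 39 had an isolated region, with 49 regions in all. The counts per list were small, no test was run on them, and the number that the genes' territory would hold at the mean rate is given beside them because territory differs between lists.

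WNT genes had 7 isolated regions in 6 of 54 genes (11.1%), against 3.03 at the mean rate for their territory of 7.11 Mb. Wnt5b, a ligand of the non-canonical branch, had 2, at chr6:119449400-119449541 and chr6:119448756-119448888. Both lay within 1 kb of the last of the 3 starts that the promoter table gives for the gene, and the nearest DE only region was 30.3 kb away. Among pathway components and targets, Axin2, a feedback inhibitor induced by WNT, had 1 region (chr11:108973847-108974010), Dkk1, a secreted antagonist, had 1 at 2.94 kb from the gene (chr19:30542890-30542976), and the co-receptor gene Lrp5 and the effector gene Tcf7l2 had 1 each. Wnt8a, a ligand of the streak, had 1 at 1.35 kb from the gene (chr18:34549334-34549478), and no region of the other 3 lists was assigned to it.

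Streak and endoderm lists had 2 or 3 isolated regions each. The 24 streak genes had 3 (Axin2, Dkk1 and Wnt8a, all on the WNT list too), against 0.691 at the mean rate, beside 6 PS only regions near shared ones, 34 PS and DE regions and 62 DE only regions. The 23 definitive endoderm genes had 2, against 0.969 at the mean rate and beside 46 PS and DE and 92 DE only regions. They were 1 inside Foxa3, a forkhead factor of gut endoderm (chr7:19020649-19020744), and 1 at Trh, the thyrotropin releasing hormone gene, 11.4 kb away (chr6:92230601-92230710). The 20 anterior endoderm and foregut genes had 2, against 0.784 at the mean rate, at Dkk1 and the Otx2 paralog Otx1, with a region of 252 bp that lay 22.8 kb from the gene (chr11:21971866-21972117). The 24 NODAL and activin genes had 0 isolated regions, against 0.961 at the mean rate, beside 3 PS only regions near shared ones. The 24 BMP genes had 1, at Bmp6, and the 26 FGF and MAPK genes had 2, at Fgf18 and Spred2, against 1.56 and 2.09 at the mean rate.

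Pluripotency and neurectoderm genes had isolated regions at single loci. Of the 25 epiblast and pluripotency genes, Nanog and Nr6a1, a nuclear receptor that represses pluripotency genes, had 1 each (2 against 1.23 at the mean rate). The 23 neurectoderm genes had 5 in 4 genes (17.4%), against 1.22 at the mean rate. Lmx1a had 2, the proneural gene Neurog2 had 1 at 6.49 kb, Olig2, a factor of motor neuron and oligodendrocyte precursors, had 1 at 44.4 kb, and Sox3, a SOXB1 factor, had 1 at 2.37 kb (chrX:60895729-60895874). No region of the other lists was assigned to Olig2 or Sox3. Among the 22 mesoderm genes Tbx20, a T-box factor of the heart, had 1, against 0.969 at the mean rate for the list. Among the 22 extraembryonic endoderm genes the laminin gene Lamb1 had 1, and Sparc, for a matrix glycoprotein, had 1 within 1 kb of its start (chr11:55419853-55419944), against 1.11 at the mean rate for the list.

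**Figure D5:**
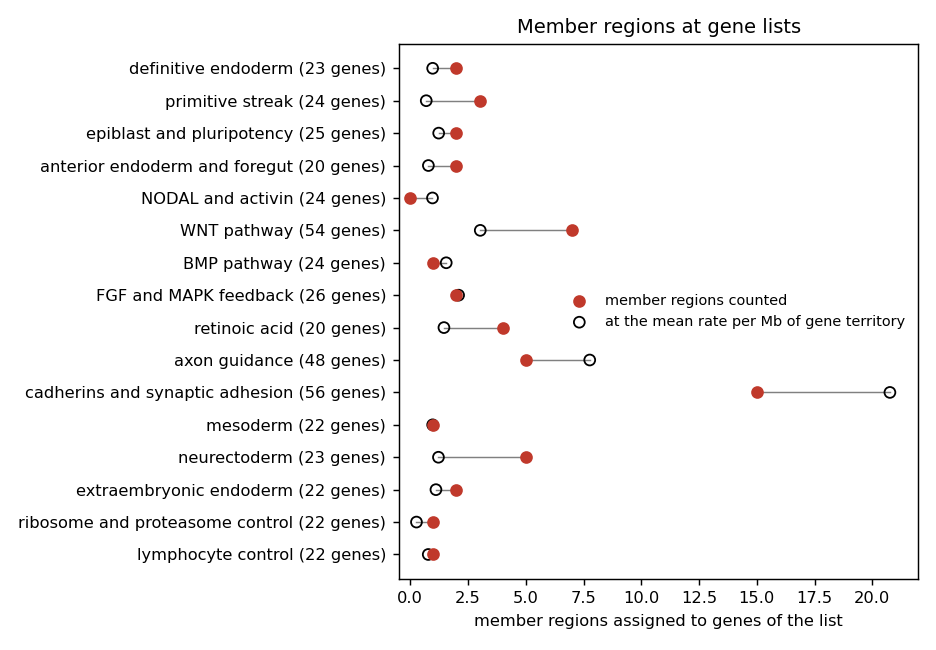
Isolated streak regions assigned to the genes of 16 lists (filled points, x axis) and the number that the genes' territory would hold at the mean rate of 0.426 per Mb (open circles). The cadherin and synaptic adhesion list has the most regions, 15, in 48.7 Mb of territory, and the NODAL and activin list has 0.

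The cadherin and synaptic adhesion list had the most isolated regions. Its 56 genes had 15 in 11 genes (19.6%), against 20.8 at the mean rate over 48.7 Mb. Of these, 4 were at Rbfox1, a splicing regulator gene that the list includes, and 2 at Tenm4, a teneurin. There was 1 each at Cdh11, Cdh12, Cdh13, Ctnna3, Lrrtm3, Nrxn3, Ntm, Pcdh15 and Pcdh8. The 48 axon guidance genes had 5 in 4 genes, against 7.77 at the mean rate. Efnb1, an ephrin ligand gene, had 2 (chrX:99152599-99152936 and chrX:99176838-99176988), and the receptor genes Ephb3 and Nrp2 and the netrin gene Ntn1 had 1 each. The 20 genes of the retinoic acid list had 4, against 1.46 at the mean rate. All were at the orphan nuclear receptor gene Rora, and no other gene of the list had any. The control lists had 1 region each, at Psma1 of the proteasome (0.268 at the mean rate) and at Ptprc, the lymphocyte surface phosphatase (0.778 at the mean rate).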

How the data were processed

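CUT&RUN regions of OTX2-HA in PS cells were analysed. Per the submitters' processing notes, the genome build was mm10 and the tools were MACS2 2.2.6, Bowtie2 2.3.5.1, bedtools 2.30, Picard 2.26.10 and SAMtools 1.14. Their order and thresholds, the use of IgG and the handling of replicates: not given in the sources used here. What the authors deposited are 4 lists of region positions (chromosome, start and end) with no score. By their names, none of the 4 holds sites of EPI alone, of EPI and DE, or of EPI, PS and DE together. The lists share 0 bases.

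Distances ran between midpoints. Genes came from a RefSeq table of GRCm38.p6 (21887 protein-coding genes on chromosomes). Its promoter table gives starts for 17492 of them and none on chromosome 18, where starts and sequence were not used. All 455 list entries matched. Territories, the positions that the assignment rule gives to a gene, were measured on a grid of 2 kb. Shares were compared by Fisher's exact test, two-sided, with Benjamini-Hochberg adjustment over 17 tests and a threshold of 0.05, computed with Python 3.11.15 and SciPy 1.17.1. Wilson intervals cover counting error only. Gene measures leave out 2 DE only regions that lie on a scaffold with no chromosome. Scripts were tested on simulated data.

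The members and lists were chosen with earlier results of these data known. Named genes were those with the most regions (ties by symbol, up to 20), up to 4 per list, those of the 5 widest regions and the 5 largest groups, the 3 regions on each side of the 50 kb threshold, and listed genes with a region within 1 kb of an end. Other genes are named with a remark or as complete lists. The planned motif tests on all regions need a genome sequence, which was not used here, so motif letters were read in promoter windows.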

Additional observations from a re-analysis of the deposited data

How the results depend on the processing

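Of the recomputed shares and counts over all regions or genes, 150 stayed on their side of the threshold or within 1.5 times, 4 fell short of the threshold, 1 passed it and 1 turned round. Against DE only regions, the ratio of the isolated share ranged from 0.263 to 0.679 at gene ends (adjusted Fisher's exact p at most 3.89e-06), from 0.236 to 0.682 at gene starts and from 0.592 to 0.838 for regions at least 200 bp wide (or 150 bp), all past the threshold; the lowest ratios at gene ends and starts came with only regions of at least 150 bp. Isolated against other PS only regions, the ratio for a DE only region nearby no longer passed 0.05 with a separating distance of 25 kb (0.939, adjusted Fisher's exact p = 0.0606), with only regions of at least 150 bp in all lists (0.792, adjusted Fisher's exact p = 0.204) and with DE only regions within 100 kb (0.966, adjusted Fisher's exact p = 0.0578). For regions far from genes it did not pass with all lists cut to regions of at least 150 bp (1.21, adjusted Fisher's exact p = 0.871). There the rule, applied anew to the cut lists, gave 354 isolated and 94 other regions. Of the original groups, 269 and 179 are that wide. With 1 region per gene or 100 kb bin, the ratio against DE only was 1.36 inside genes (adjusted Fisher's exact p = 2.37e-09). Far from genes it was 0.795 (adjusted Fisher's exact p = 0.00789), where all regions gave 1.01 and 1.03. This setting keeps the region with the lowest coordinate, and thins unequally, to 864 of 958 isolated and 10384 of 20933 DE only regions. The cause was not tested. Assignment within 50 kb, within 1 Mb or to the nearest gene end kept the number of genes with an isolated region within 1.5 times. It moved the count of 6 lists by more, among them NODAL and activin, with 1 region within 1 Mb, and BMP, with 0 by nearest gene end. Motif alternatives on all regions were not run. No paired analysis was possible because no list gives a value per library, and no replicate could be left out. Depth is unknown, so sites missing from a list cannot be told from sites not detected.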
